A study of Mus musculus with 6 samples.

Results

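The transforming growth factor beta (TGF-beta) and bone morphogenetic protein (BMP) pathway was followed in the hippocampus of mice that lost the histone demethylases KDM1A and KDM5C as adults. The 53 members were taken from a list of gene symbols, out of 48795 gene identifiers counted, and every one matched 1 identifier. They comprised 20 ligands, the protease gene Bmp1, 4 latent TGF-beta binding proteins (LTBPs), 13 receptors and co-receptors, 8 SMADs and 7 antagonists. The double knockout (dKO) carried floxed Kdm1a and Kdm5c (exons 5 and 6, and exons 11 and 12, respectively) and CreERT2 under the CamKIIα promoter, which restricts recombination to principal neurons of the forebrain. Controls were labelled wild type (WT), and whether they carried the recombinase is not given in the sources used here. Both groups received tamoxifen, were on a C57BL/6J background and were 2 to 3 months old at that time, and each had 3 polyadenylated RNA libraries. The comparison asks which pathway transcripts change in level when these neurons lose both demethylases. There was no group with a single knockout, so the 2 genes' shares in a difference cannot be told apart.

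TGF-beta family ligands are secreted as dimers cut from a larger precursor. TGF-betas leave the cell bound to an LTBP that tethers them to extracellular microfibrils in an inactive form, whereas BMPs and activins are held in check mainly by secreted antagonists such as noggin, chordin and follistatin. Ligands join type I and type II receptor kinases, which phosphorylate SMAD proteins that enter the nucleus with SMAD4. In the adult hippocampus BMP signalling is known for restraining the division of neural stem cells, and activin for effects on synaptic function.

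Total counts were 19309576 to 19700249 per library. Kdm1a fell by 47.7% (edgeR adjusted p = 4.32e-07), while Kdm5c had a log2 fold change of -0.17 and did not pass (edgeR adjusted p = 0.143). These whole-gene counts test the deletion of the named exons only in part. Markers of hippocampal principal neurons were present in every library, with 6887 to 7320 summed counts per 1000000 (CPM) in WT and 6524 to 7187 in dKO over 12 genes, of which Spink8, C1ql2 and Dsp rose and Neurod6 fell. Of the dKO libraries, replicates 1 and 3, held more RNA of meninges and choroid plexus type than the other 4, and results that move with it are given with those values. Nothing in the labels states that each library is a different animal, and p-values therefore measure the spread between these libraries, which may be technical.

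Of the 53 members 48 had enough reads to be tested, and 10 rose and 0 fell in the dKO. The risers were the ligand genes Bmp8a, Bmp8b, Inhbb, Bmp6, Gdf10 and Gdf11, the protease gene Bmp1, the latent binding protein gene Ltbp2 and the antagonist genes Nbl1 and Fst. Genes are said to have risen or fallen at an adjusted p under 0.05 by edgeR (quasi-likelihood, Benjamini-Hochberg over all 16861 genes tested). By that rule 5.90% of all genes tested were higher, 1.05% were lower and 6.95% changed in either direction, against 20.8% of the tested members higher. In bulk tissue a rise can come from more cells of a type or from more RNA per cell, which cannot be told apart. At an unadjusted p under 0.05, 18 members were higher and 0 lower. DESeq2 called 9 members higher and 0 lower with 5.40% of all genes higher, and limma-voom 11 and 0 with 5.85%.

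All 10 risers coded for secreted proteins, and none of the 21 receptor and SMAD genes passed. Over all genes tested 6.95% passed, and at that share few calls would fall among 21 genes. Among the 27 tested ligand, protease, LTBP and antagonist genes the median log2 fold change was 0.33. It was 0.07 among the receptors and SMADs and -0.01 among all genes tested. For a member almost without reads in WT, passing the filter required reads in dKO, which concerns the low ligands and LTBPs more than the receptors, and the members were listed with earlier results of these data known. No test was made of the difference between roles. All dKO libraries lay above all WT libraries in 19 tested members, against 14.0% of all genes tested, and below them in 1, Tgfb2, against 11.2%. At least 2-fold rises occurred in Ltbp2, Bmp8a, Bmp8b and Inhbb, while 2.09% of all genes tested rose that far.

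**Figure D1:**
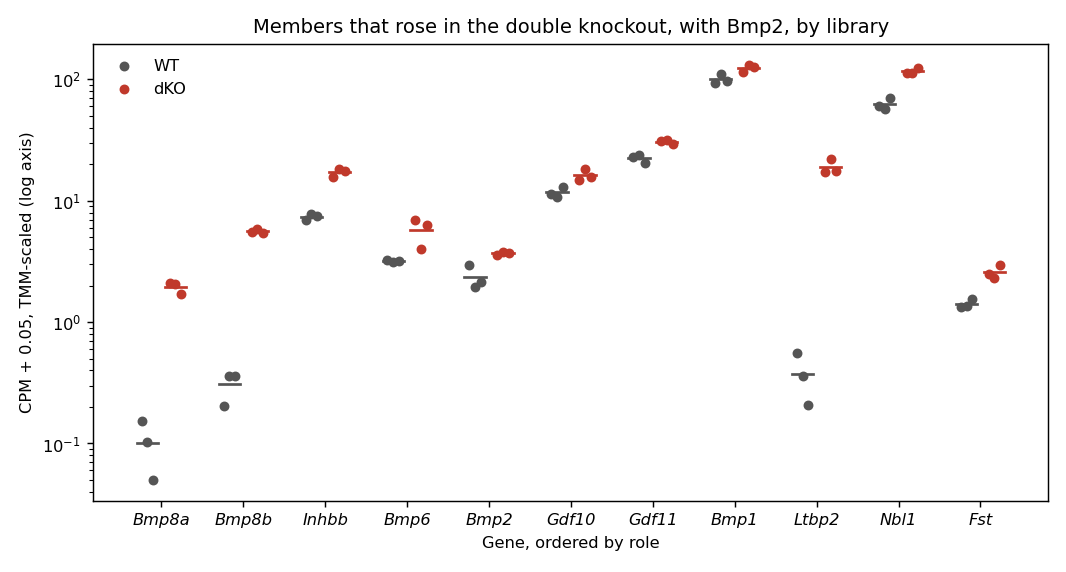
CPM + 0.05 on a log axis for the 10 members that rose and for Bmp2, whose adjusted p was 0.0515. Points are libraries (grey WT, red dKO, 3 each) and bars are means; the 2 groups do not overlap in any gene shown, and Ltbp2, Bmp8a and Bmp8b start below 1 CPM in WT.

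The windows around the annotated starts of the 5 risers with the smallest adjusted p are shown. Some of the histone H3 lysine methylation that these enzymes remove is typical of CpG-rich gene starts. Each window runs from 250 bases before to 50 bases after a RefSeq start (GRCm38.p6), 5′ to 3′ on the strand of the gene, with CpG dinucleotides in capitals. No histone mark was measured here.
Ltbp2 (chr12:84876442-84876741, minus strand): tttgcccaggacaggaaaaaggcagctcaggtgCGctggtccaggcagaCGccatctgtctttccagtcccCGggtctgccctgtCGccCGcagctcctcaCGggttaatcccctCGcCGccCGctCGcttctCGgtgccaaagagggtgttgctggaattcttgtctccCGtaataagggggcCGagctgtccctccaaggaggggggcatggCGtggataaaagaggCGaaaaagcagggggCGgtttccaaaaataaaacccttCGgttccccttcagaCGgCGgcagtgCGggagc
Bmp8a (chr4:123343203-123343502, minus strand): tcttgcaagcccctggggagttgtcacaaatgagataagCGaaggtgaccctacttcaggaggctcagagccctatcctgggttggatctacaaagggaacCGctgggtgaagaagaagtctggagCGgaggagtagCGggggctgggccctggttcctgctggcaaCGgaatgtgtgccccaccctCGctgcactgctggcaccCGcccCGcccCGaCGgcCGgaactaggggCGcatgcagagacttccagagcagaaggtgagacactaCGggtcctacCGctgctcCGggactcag
Bmp8b (chr4:123104911-123105210, plus strand): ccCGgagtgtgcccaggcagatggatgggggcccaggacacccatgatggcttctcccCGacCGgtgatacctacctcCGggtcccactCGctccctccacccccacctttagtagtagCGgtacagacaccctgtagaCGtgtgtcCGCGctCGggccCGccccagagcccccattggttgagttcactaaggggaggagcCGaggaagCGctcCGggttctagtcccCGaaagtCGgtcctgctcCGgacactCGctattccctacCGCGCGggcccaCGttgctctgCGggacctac
Inhbb (chr1:119422199-119422498, minus strand): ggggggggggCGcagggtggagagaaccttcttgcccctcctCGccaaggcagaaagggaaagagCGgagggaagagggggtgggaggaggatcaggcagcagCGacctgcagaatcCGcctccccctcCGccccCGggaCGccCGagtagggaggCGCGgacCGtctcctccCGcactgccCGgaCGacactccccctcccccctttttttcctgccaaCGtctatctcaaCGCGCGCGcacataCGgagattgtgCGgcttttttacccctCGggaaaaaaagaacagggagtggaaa
Nbl1 (chr4:139092921-139093220, minus strand): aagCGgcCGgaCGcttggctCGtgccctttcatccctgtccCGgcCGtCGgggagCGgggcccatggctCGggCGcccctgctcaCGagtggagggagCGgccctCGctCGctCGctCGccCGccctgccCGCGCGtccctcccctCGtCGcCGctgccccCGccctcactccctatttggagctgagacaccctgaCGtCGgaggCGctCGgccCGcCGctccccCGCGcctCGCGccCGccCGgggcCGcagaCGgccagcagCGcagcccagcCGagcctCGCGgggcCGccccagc

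These windows held 20 CpGs at Ltbp2, 15 at Bmp8a, 23 at Bmp8b, 23 at Inhbb and 43 at Nbl1. A window was given for 38 members, and the first was used where a gene had several. The median was 25 CpGs over the 8 risers with a window, 27 over the 27 tested members that did not pass, and 20 over 12014 tested genes with a window. CpG content thus had a like median in members that rose and members that did not. The GC-rich SMAD motif GGCGCC, the same on both strands, stood in the windows of 2 of the 8 risers, Nbl1 and Gdf10, and in 28.9% of the 38 member windows, against 21.1% of the tested genes. The SMAD palindrome GTCTAGAC was in 0 of the 8 and in 1 member window, that of Smad6, against 0.233% of tested genes. The E-box CACGTG was in 1 of the 8 (Bmp6; 9.71% of tested genes) and CAGCTG in 1 (Gdf11; 15.5%). A match describes the letters and is not evidence of a bound site.

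Ltbp2 changed more than any other member. Its product is an LTBP that joins microfibrils and elastic fibres and, unlike the other family members, is not known to carry latent TGF-beta. Ltbp2 (ENSMUSG00000002020, chromosome 12, 84783212 to 84876532, minus strand, GRCm38) had 10, 6 and 3 counts in WT, and 336, 425 and 345 counts were found in dKO. That is 0.510, 0.313 and 0.156 CPM in WT and 17.1, 21.9 and 17.5 CPM in dKO, so the lowest dKO library stood far above the highest WT library. The log2 fold change was 5.82 (SE 0.231, 95% interval 5.32 to 6.32, edgeR adjusted p = 2.32e-09). The highest value was in dKO replicate 2, the dKO library with the least meninges and choroid plexus RNA. The part of such cells in the rise of Ltbp2 was not tested. An antisense transcript across the start of Ltbp2, D030025P21Rik, covers 9.34% of its exons, and it had 1 count in WT and 17 in dKO (too few to test). Without a stated strand setting, reads of the overlap cannot be assigned. None of the 6 tested genes within 100 kb of Ltbp2 passed.

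The other LTBP genes were expressed in WT and moved little. Ltbp4, which supports elastic fibres and binds latent TGF-beta, measured 42.3, 55.0 and 45.1 CPM in WT and 54.4, 54.6 and 52.8 in dKO, and WT replicate 2 overlapped the dKO range. It was the main LTBP gene at 7.34 ± 1.03 CPM per kilobase of exon in WT and 8.35 ± 0.153 in dKO (mean ± SD, n = 3 each). Ltbp3, which carries latent TGF-beta, measured 27.8, 31.9 and 33.0 CPM in WT and 37.7, 35.1 and 36.4 in dKO, so the groups did not overlap. Its log2 fold change of 0.24 (95% interval 0.07 to 0.41) did not pass (edgeR adjusted p = 0.10). Ltbp1, the first carrier of latent TGF-beta to be described, had a log2 fold change of 0.33 (0.05 to 0.60) and Ltbp4 one of 0.19 (0.0005 to 0.37), and neither passed (edgeR adjusted p = 0.158 and 0.246). Ltbp3 passed without WT replicate 3 (edgeR adjusted p = 0.0434) and Ltbp4 without WT replicate 2 (0.0123).

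Per kilobase of exon, Ltbp2 supplied 0.605, 0.299 and 0.166% of the summed LTBP level in WT, rising to 13.4, 16.9 and 14.0% in dKO. Ltbp4 supplied 60.7 to 66.5% in WT and 53.2 to 53.9% in dKO, and Ltbp3 27.5 to 31.7% and 24.4 to 26.6%. The summed level was 11.5 ± 1.25 CPM per kilobase in WT and 15.6 ± 0.297 in dKO. Ltbp2 thus went from the least to the third of the 4 genes and passed Ltbp1, which supplied 5.50 to 6.27% in dKO.

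**Figure D2:**
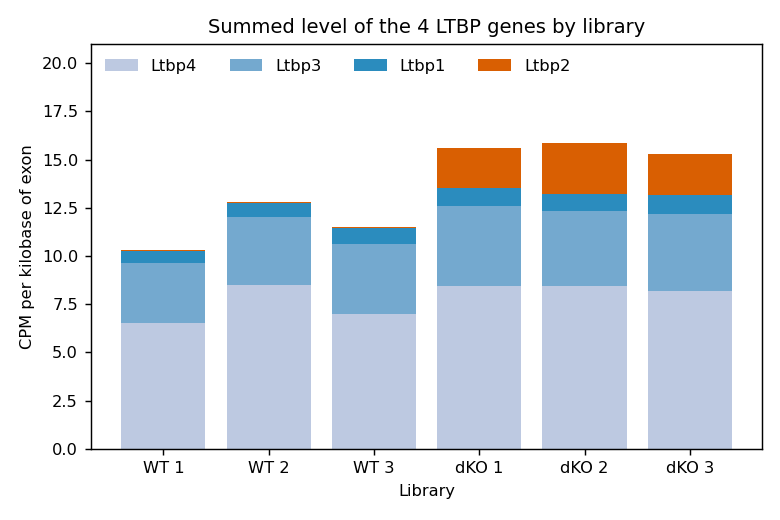
Summed level of Ltbp1 to Ltbp4 in each library, in CPM per kilobase of exon, stacked by gene. Ltbp2 (orange) is a thin line in the 3 WT libraries and 13.4 to 16.9% of the column in the 3 dKO libraries.

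Among the ligands the neighbouring paralogues Bmp8a and Bmp8b went from near silence to low expression. Both encode BMP8 proteins, known in the mouse for spermatogenesis and, for BMP8B, for brown fat thermogenesis. Bmp8a (ENSMUSG00000032726, chromosome 4, 123312645 to 123343252, minus strand) had 2, 1 and 0 counts in WT and 40, 39 and 33 in dKO. The ratio of counts per library size was 36.9 (exact 95% counting interval 12.3 to 181; edgeR adjusted p = 7.46e-06). Bmp8b (ENSMUSG00000002384, chromosome 4, 123105165 to 123132099, plus strand) had 3, 6 and 6 counts in WT and 107, 113 and 106 in dKO, a log2 fold change of 4.39 (SE 0.249, edgeR adjusted p = 5.77e-08). The dKO libraries lay close together in both genes. Even so, the dKO means were 0.793 and 1.43 CPM per kilobase, near those of Tgfb1 (0.790) and Bmp6 (1.46) and far below that of Inha (18.5).

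The Bmp8 genes lie 181 kb apart. The 5 tested genes between them had log2 fold changes of 0.08 to 0.54 and none passed. Of the 50-base stretches in annotated Bmp8a transcripts 8.74% also occur in Bmp8b, and 5.5% of those of Bmp8b occur in Bmp8a. Reads from such stretches could be misplaced or dropped, so the split between the paralogues is uncertain to that extent, though each has mostly sequence of its own. The retrogenes Oxct2a and Oxct2b, which lie inside the spans of Bmp8a and Bmp8b, had 0 and 7 summed counts in WT and 7 and 25 in dKO, too few to test. Bmp8b also shares 8.74% of its exons with Gm17244 and 3.43% with Ppie, both on the other strand. Their log2 fold changes of 0.72 and 0.07 did not pass (edgeR adjusted p = 0.219 and 0.802). Without a stated strand setting, reads of these overlaps cannot be assigned.

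Inhbb, which encodes the beta B subunit of activin B and inhibin B, more than doubled. Inhbb (ENSMUSG00000037035, chromosome 1, 119415465 to 119422248, minus strand) measured 6.83, 7.73 and 7.49 CPM in WT and 15.7, 18.2 and 17.7 CPM in dKO. Each dKO library stood well above the WT range, and the log2 fold change was 1.22 (SE 0.105, edgeR adjusted p = 3.52e-06). Inha, the inhibin alpha subunit and the ligand gene with the highest level per length, measured 25.2, 30.0 and 25.9 CPM in WT and 26, 28.7 and 27.0 in dKO. Its interval ran from -0.18 to 0.20 log2 units. Inhba, the beta A subunit of activin A and not on the member list, had a log2 fold change of -0.03 and an interval from -0.50 to 0.44. The 3 subunit genes thus had 1 rise and 2 folds near 0.

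Follistatin, the product of Fst, binds activins and blocks them. Fst (ENSMUSG00000021765, chromosome 13, 114452290 to 114458951, minus strand) measured 1.27, 1.31 and 1.51 CPM in WT and 2.45, 2.27 and 2.89 in dKO, again with no overlap, and rose by a log2 fold change of 0.89 (SE 0.207, edgeR adjusted p = 0.0169). Its call rests on few reads, 79 and 149 summed counts, and was lost in DESeq2 (adjusted p = 0.0635). It was also lost without WT replicate 1, WT replicate 2 or dKO replicate 3 (edgeR adjusted p = 0.0666, 0.0583 and 0.0972).

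Gdf11 and Gdf10 rose modestly. GDF11 is a close relative of myostatin that signals through activin receptors, and Gdf11 (ENSMUSG00000025352, chromosome 10, 128882295 to 128891718, minus strand) measured 22.8, 23.6 and 20.6 CPM in WT and 30.9, 31.8 and 29.4 in dKO (log2 fold change 0.46, SE 0.0809, edgeR adjusted p = 0.00247). GDF10, also called BMP3B, is known for promoting axon outgrowth after stroke in rodents. Gdf10 (ENSMUSG00000021943, chromosome 14, 33923587 to 33937983, plus strand) measured 11.3, 10.7 and 13 CPM in WT and 14.8, 18.2 and 15.6 in dKO (0.48, SE 0.111, edgeR adjusted p = 0.0173). The dKO values stood above the WT values in both genes. Gdf10 lost its call without WT replicate 1, WT replicate 2 or dKO replicate 2 (edgeR adjusted p = 0.0656, 0.0642 and 0.0959), while Gdf11 kept its call in all 13 alternatives.

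Bmp1 encodes a metalloprotease that cuts procollagens and chordin, and it is not itself a TGF-beta family ligand. The gene (ENSMUSG00000022098) lies on chromosome 14 from 70474558 to 70520234 on the minus strand. Per kilobase of exon it was the second most abundant riser after Nbl1, at 11.4 ± 0.994 in WT and 14.1 ± 0.982 in dKO (mean ± SD, n = 3 each). It measured 94.2, 111 and 97.3 CPM in WT and 115, 132 and 126 CPM in dKO (log2 fold change 0.31, SE 0.0746, edgeR adjusted p = 0.0221). The lowest dKO value lay just above the highest WT value. The call was lost without WT replicate 1, dKO replicate 2 or dKO replicate 3 (edgeR adjusted p = 0.0954, 0.121 and 0.0972).

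Bmp6, an osteogenic BMP that also signals iron load in the liver, rose unevenly across the dKO libraries. Bmp6 (ENSMUSG00000039004, chromosome 13, 38345107 to 38500302, plus strand) shares 5.74% of its exons with Txndc5 on the other strand. It measured 3.21, 3.08 and 3.12 CPM in WT and 6.88, 3.92 and 6.24 in dKO (log2 fold change 0.85, SE 0.199, edgeR adjusted p = 0.0170). Replicates 1 and 3 of the dKO stood high, and replicate 2 stood near WT though above every WT library. Bmp7, a BMP of meninges and choroid plexus, showed the same order with 5.05, 4.18 and 4.58 CPM in WT and 8.72, 3.61 and 6.80 in dKO, its groups overlapped, and it did not pass (0.47, edgeR adjusted p = 0.303). Bmp5 and Bmp3 also had their lowest dKO value in replicate 2, at 0.309 against 1.07 and 0.609 CPM, and at 4.64 against 9.48 and 6.80 CPM. Neither passed (edgeR adjusted p = 0.527 and 0.742).

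As with these BMPs, all 11 tested markers of fibroblasts and meninges had their lowest dKO value in replicate 2. Of all genes tested 33.7% did so. The markers' log2 fold changes ranged from -0.23 to 1.60, and 10 were positive. Their summed level was 111 to 130 CPM in WT and 216, 108 and 199 CPM in the 3 dKO libraries, over 11 genes of which 2, Aldh1a2 and Foxc1, rose and none was at 0. Markers of choroid plexus and ependyma gave 41.7 to 61.6 CPM in WT and 137, 76.9 and 137 CPM in dKO over 10 genes, of which Kl rose. Leaving out Kl after its value was seen, the sums were 19.2 to 38.6 CPM in WT and 77.4, 21.8 and 75.6 CPM in dKO. Mural cell markers gave 233 to 247 CPM in WT and 272, 237 and 300 in dKO (1 of 10 rose, Pdgfrb), and endothelial markers 282 to 298 and 299 to 328 CPM (0 of 11 rose). The part of these cells in the rise of Bmp6 was not tested.

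Some other marker sums differed between the groups with all 3 dKO libraries high. Astrocyte markers gave 4776 to 5070 CPM in WT and 5286 to 5360 in dKO (Gfap rose, 1 of 10), and oligodendrocyte markers 5151 to 5587 and 5733 to 6444 CPM (Mbp rose, 1 of 10). Markers of oligodendrocyte precursors gave 436 to 448 and 478 to 487 CPM (C1ql1 rose, 1 of 8), and those of thalamus, habenula and striatum 134 to 138 and 156 to 160 CPM (4 of 10 tested rose). Only 5 of these 10 region markers had a positive fold, with a median log2 fold change of 0.10 and a range of -0.29 to 1.66. Microglial and interneuron sums overlapped between the groups. No marker on any list was at 0 in all libraries, and the part of these cells and regions in the members' rises was not tested.

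With dKO replicate 2 as the only dKO library, an alternative added after the data were seen, 5 members passed: Ltbp2, Bmp8a, Bmp8b, Inhbb and Nbl1. Their log2 fold changes were then 6.03, 5.11, 4.46, 1.30 and 0.85. Those of Bmp6, Bmp7, Bmp5 and Bmp3 were 0.32, -0.35, -0.53 and -0.39. In this fit the lone library is assumed to vary like the others, and fewer libraries alone lower the number of calls. Without dKO replicate 2, Bmp7 passed (log2 fold change 0.75, edgeR adjusted p = 0.0155). Bmp6 lost its call without dKO replicate 1 or 3 (edgeR adjusted p = 0.0871 and 0.0889) and without WT replicate 1 or 2 (0.0537 and 0.0583).

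**Figure D3:**
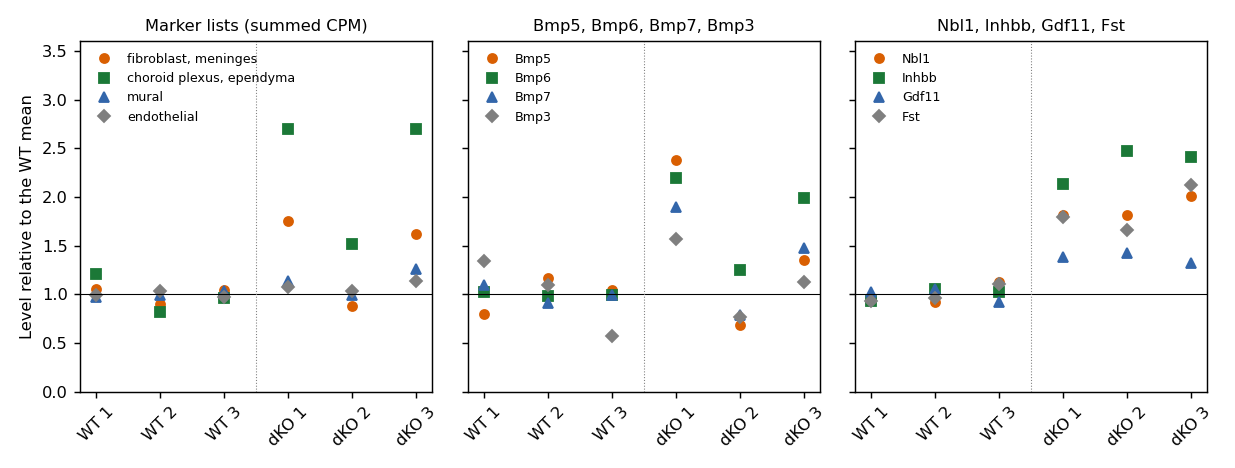
Level in each library relative to the WT mean, for summed marker lists (left), for Bmp5, Bmp6, Bmp7 and Bmp3 (middle) and for 4 risers (right). In the left and middle panels dKO replicate 2 lies below dKO replicates 1 and 3, while for Nbl1, Inhbb, Gdf11 and Fst, as for Bmp6, all 3 dKO libraries lie above WT.

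The remaining ligands did not pass. Bmp2, which drives bone and heart formation, was nearest: 2.91, 1.88 and 2.08 CPM in WT and 3.52, 3.76 and 3.65 in dKO, groups apart, log2 fold change 0.67 (95% interval 0.26 to 1.08, edgeR adjusted p = 0.0515). It passed in 5 of the 13 alternatives, with edgeR adjusted p of 0.0431 under library size scaling, 0.0351 with no filter, 0.0496 at 1 CPM in 3 libraries and 0.0212 without WT replicate 1, and 0.0482 in limma-voom. The TGF-beta isoforms had intervals that included 0: -0.42 to 0.22 log2 units for Tgfb1, the widest, -0.19 to 0.06 for Tgfb2 and -0.14 to 0.29 for Tgfb3. Tgfb2, the main isoform here at 9.26 ± 0.114 CPM per kilobase in WT and 8.84 ± 0.165 in dKO (n = 3 each), was the 1 member whose dKO libraries all lay below WT. Bmp4, a BMP made by oligodendrocyte precursors in the brain, had an interval of -0.26 to 0.62.

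The other 5 ligand genes had too few reads to test. Gdf7 had 3, 1 and 2 counts in WT and 14, 9 and 10 in dKO, a ratio of 5.43 (exact 95% counting interval 2.25 to 15.9), and passed when no filter was applied (edgeR adjusted p = 0.00673). Gdf5 had 2 and 10 summed counts (ratio 4.94, 1.05 to 46.3) and Gdf6 had 6 and 12 (1.97, 0.686 to 6.41). Gdf15, a stress-induced member of the family, had 0 counts in every WT library and 3, 0 and 2 in dKO, so the groups overlapped. No fold is given for it, and it did not pass when no filter was applied (edgeR adjusted p = 0.323). Gdf1 was at 0 in all 6 libraries, and its exons lie wholly within those of Cers1 on the same strand, so reads there could not be assigned to it alone. Cers1 had 936 to 1098 counts in WT and 900 to 1046 in dKO. Counting intervals cover counting error only.

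Of the antagonists Nbl1 and Fst rose and 5 did not pass. Nbl1 encodes DAN, a secreted protein of the family of gremlin that binds BMPs and GDFs. Nbl1 (ENSMUSG00000041120, chromosome 4, 139082284 to 139092993, minus strand) measured 59.9, 56.9 and 69.7 CPM in WT and 113, 113 and 125 in dKO (log2 fold change 0.91, SE 0.0779, edgeR adjusted p = 3.27e-06). The dKO libraries were all well above WT, including replicate 2. Per kilobase of exon Nbl1 went from 30.6 ± 3.29 to 57.6 ± 3.53 (mean ± SD, n = 3 each). It was second to the receptor gene Acvr1b among all members in WT, and first in dKO. The summed antagonist level went from 71.9 ± 4.61 to 104 ± 3.99 CPM per kilobase, and without Nbl1 from 41.4 ± 2.61 to 46.3 ± 1.40.

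Chordin, noggin and gremlin 1 sequester BMPs. Chrd, the second antagonist gene by level at 26.6 ± 2.53 CPM per kilobase in WT and 29.4 ± 1.51 in dKO, had an interval of -0.01 to 0.30 log2 units. Nog measured 3.31, 3.71 and 3.96 CPM in WT and 4.69, 5.41 and 4.67 in dKO, with no overlap, but did not pass (log2 fold change 0.43, 95% interval 0.10 to 0.75, edgeR adjusted p = 0.119). Grem1 had an interval of -0.30 to 0.26 and Bambi, a receptor decoy at the membrane, one of -0.46 to 0.32. Fstl1, a secreted relative of follistatin, had one of 0.04 to 0.35 without passing.

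**Figure D4:**
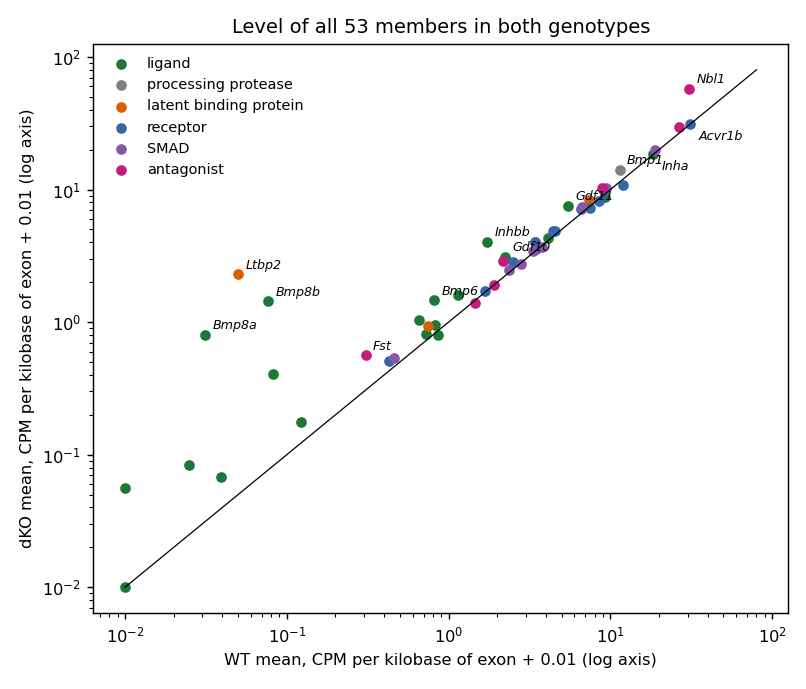
Mean level of all 53 members in WT (horizontal) and dKO (vertical), in CPM per kilobase of exon + 0.01 on log axes, coloured by role; the line marks equal levels. Risers are named, with Acvr1b and Inha for scale; Ltbp2, Bmp8a and Bmp8b lie farthest above the line and Nbl1 is the highest point in dKO.

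All 13 receptor genes could be tested and 0 passed in edgeR, DESeq2 or limma-voom. In edgeR 6.95% of all genes tested passed, and at that share few calls would fall among 13 genes. At an unadjusted p under 0.05 the count was 1, Tgfbr2, the TGF-beta type II receptor, with a log2 fold change of 0.19 (95% interval 0.01 to 0.37). Acvr1b, a type I receptor for activins, stood highest and measured 137, 135 and 138 CPM in WT and 141, 139 and 132 in dKO, with an interval of -0.12 to 0.13 log2 units. Acvr2a, an activin type II receptor, had the lowest fold at -0.15 (-0.32 to 0.02). Acvr2b, its relative with few reads, had the highest at 0.24 (-0.22 to 0.70). The BMP receptors Bmpr1a, Bmpr1b and Bmpr2 lay at 0.10, 0.07 and -0.03, and the endothelial receptors Acvrl1 and Eng at 0.22 and 0.10. Summed over the class, the level was 92.4 to 97.0 CPM per kilobase in WT and 95.1 to 99.1 in dKO, which overlap. These intervals do not show that receptor levels were equal, and all but that of Acvr2b ended at or below 0.47 log2 units.

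The 8 SMAD genes likewise had 0 calls in edgeR, DESeq2 and limma-voom, and 1 at an unadjusted p under 0.05, Smad5 (log2 fold change 0.15, 95% interval 0.01 to 0.29). With 6.95% of all genes tested called by edgeR, few calls would fall among 8 genes. Smad3, which transmits TGF-beta and activin signals, was the most abundant at 18.8 ± 0.712 CPM per kilobase in WT and 19.9 ± 1.49 in dKO. It measured 108, 104 and 101 CPM in WT and 102, 119 and 110 in dKO, and the groups overlapped. The BMP SMADs Smad1 and Smad9 lay at 0.06 and 0.05, Smad2 at -0.03 and the shared partner Smad4 at 0.13. The inhibitory SMADs, whose genes are themselves targets of the pathway, lay at 0.25 (-0.37 to 0.86) for Smad6 and -0.03 (-0.23 to 0.16) for Smad7. The interval of Smad6 is wide because it had only 21 to 44 counts per library.

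**Figure D5:**
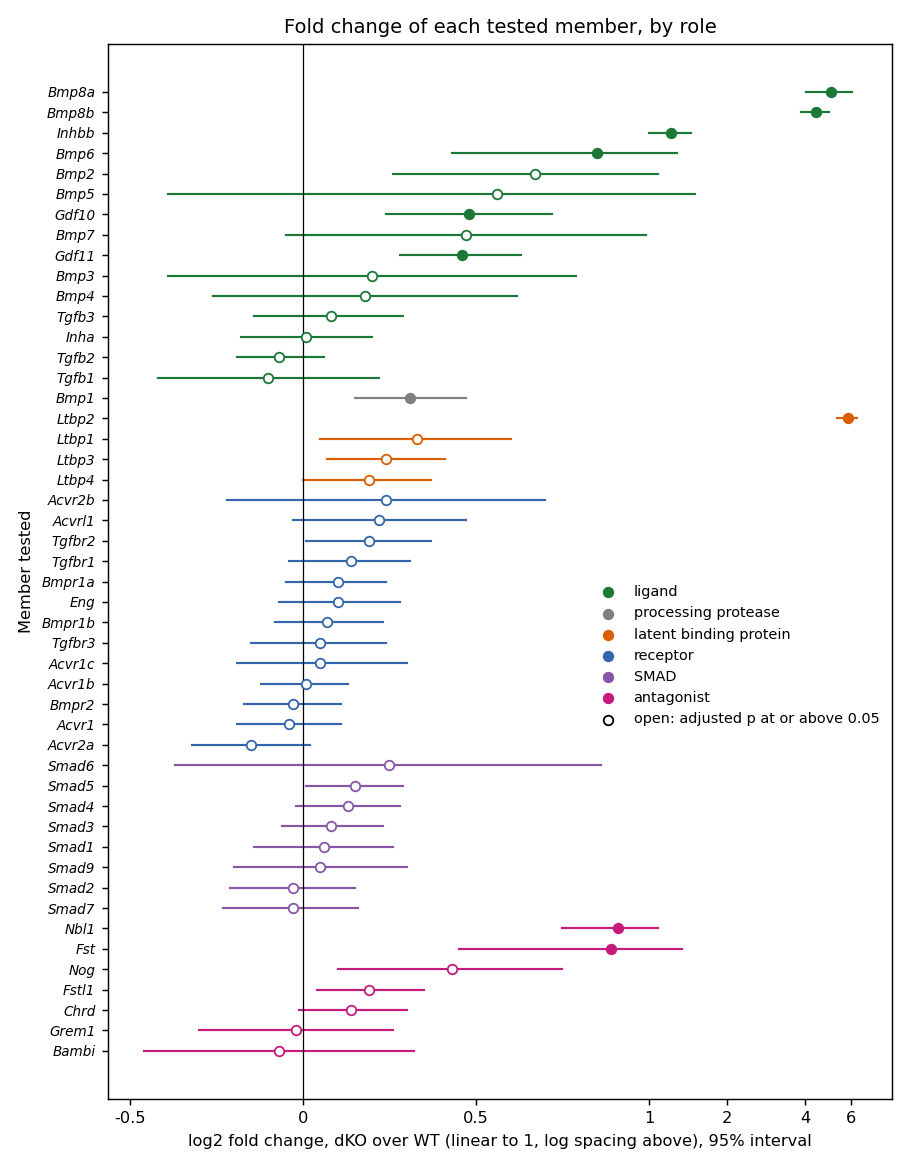
log2 fold change with 95% interval for the 48 tested members, grouped and coloured by role; filled points passed (adjusted p under 0.05, edgeR). The axis is linear to 1 and log-spaced above. Filled points occur among ligands, the protease, LTBPs and antagonists, and all 21 receptor and SMAD points are open.

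Other genes of the pathway were read from lists written with earlier results known. Over 100 tested genes that were not members 16 rose and 2 fell, while 5.90% of all genes tested rose and 1.05% fell. Proteins of microfibrils and elastic fibres, the structures to which LTBPs attach, moved most: 7 of 16 tested (43.8%) rose and 0 fell, with a median log2 fold change of 0.40. Loxl1, an enzyme that crosslinks elastin, measured 3.16, 3.81 and 4.53 CPM in WT and 21.3, 23.2 and 24.6 in dKO (edgeR adjusted p = 1.58e-08). Mfap4, a microfibril-associated protein, rose by a log2 fold change of 1.46, Adamtsl2, a partner of fibrillin and LTBP1, by 1.22, and Mfap2 by 0.73. The dKO libraries, replicate 2 included, lay above WT in each of these 4 genes. The other risers, named after their values were seen, were Lox (1.98), Efemp1 (0.52) and Fbn2 (0.49). Efemp1 lost its call without dKO replicate 3 (edgeR adjusted p = 0.0640), and Fbn2 without WT replicate 1 or dKO replicate 1 (largest 0.0770). In Lox, Efemp1 and Fbn2 replicate 2 was the lowest of the dKO libraries, at 0.979, 13.9 and 12.2 CPM. It still lay above the highest WT values of these genes, 0.408, 11.9 and 10.2 CPM. Replicate 2 was the lowest dKO library in 10 of the 16 tested genes of the list and in 33.7% of all genes tested. The fibroblast and meninges markers had the same order, with sums of 216, 108 and 199 CPM in dKO, and their part in the change of this list was not tested.

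Of 12 tested genes that activate or anchor latent TGF-beta, 2 rose: the integrin genes Itgb3 (2.45, 2.30 and 2.65 CPM in WT, 4.28, 4.38 and 4.51 in dKO) and Itgav (log2 fold change 0.40), whose products pair as a receptor that can release TGF-beta. Of 6 other ligand genes tested Lefty2, an inhibitor of Nodal, rose from 1.08 ± 0.324 to 6.21 ± 0.638 CPM (n = 3 each, log2 fold change 2.51, edgeR adjusted p = 2.23e-06). Of 5 co-receptors Rgma, which binds BMPs and neogenin, rose by 0.28. Of 16 other extracellular modulators the protease gene Htra1 rose (0.29). In the order given, 16.7, 16.7, 20 and 6.25% of these lists rose, against 5.90% of all genes tested. The share of the modulators was thus near that of all genes. Htra1 was called in 9 of 13 alternatives and Rgma in 10, and both calls were lost on leaving out dKO replicate 1, 2 or 3 (largest edgeR adjusted p of 0.180 and 0.0711). That of Htra1 was also lost without WT replicate 1.

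Of 19 intracellular SMAD regulators 1 passed (5.26%, against 6.95% of all genes tested). Pmepa1, a TGF-beta-induced inhibitor of the pathway, rose (21.9, 24.5 and 22.3 CPM in WT, 32.3, 33.3 and 35.4 in dKO, edgeR adjusted p = 3.92e-04), with a median of -0.03 over the list. Of 26 tested SMAD target genes 3 rose and 1 fell (15.4% called, against 6.95%), with a median of 0.04. Id3 (log2 fold change 0.44) and Id2 (0.22), which encode inhibitors of helix-loop-helix factors induced by BMPs, rose, as did Zeb1 (0.25), and Bhlhe40 fell (-0.32). Id1, the BMP target most often used as a readout, had 0.13 and did not pass (edgeR adjusted p = 0.698). Id2 passed in 5 of 13 alternatives, Zeb1 in 9, Id3 in 10 and Bhlhe40 in 11. The largest edgeR adjusted p reached was 0.207, 0.153, 0.0996 and 0.0685 for the 4 genes. This list shares Col1a1 and Col1a2 with the fibroblast markers.

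Of 45 tested genes within 100 kb of the 10 risers 4 rose and 1 fell, or 11.1% against 6.95% of all genes tested: Lgi3 rose (0.39) and Dmtn fell (-0.19) near Bmp1, Cd63 rose (0.65) near Gdf11, and Tmco4 (0.77) and Htr6 (0.53) rose near Nbl1. None near Ltbp2, Bmp8a, Bmp8b, Inhbb, Fst, Bmp6 or Gdf10 passed.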

How the data were processed

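The deposited values were raw read counts per gene, 1 column per library for 3 WT and 3 dKO libraries of hippocampus. The tools named, per the submitters' processing notes, are cutadapt 1.18 (trimming), HISAT2 (alignment) and HTSeq 0.11.1 (counting), with GRCm38 (mm10) as the genome build. The sources used here give neither the annotation release nor the strand setting. Symbols, positions and exon lengths came from GENCODE M21, which left 360 identifiers with 0.0512% of counts unmatched.

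Counts were filtered with filterByExpr (minimum count 10, minimum total 15), scaled with TMM and tested in edgeR (quasi-likelihood F, no covariate, Benjamini-Hochberg over all genes tested). CPM is per 1000000 TMM-scaled counts, and CPM per kilobase divides it by the union of annotated exons. The SE is the size of the log2 fold change divided by the square root of F. In simulated data of 16661 genes the test recovered 73% of 1.5-fold and 84% of 2-fold changes, with 5.42% of calls false. There 100 genes were changed at each fold, in both directions, and libraries were drawn independently. In the real data 1172 genes passed, mostly upward, so these rates need not hold for them. Members, lists and tests were chosen with earlier results of these data known. Values in every library are given for members that passed, the 3 nearest to passing, and the highest per length in each role. Up to 4 passing genes per further list are named by that rule, and 3 more of the microfibril list after their values were seen. The result of 1 gene of these lists is not reported here. Alternatives were DESeq2 and limma-voom, scaling by RLE or by library size, no filter or 1 CPM in 3 libraries, a replicate block, thresholds of 0.01 and 0.1, and leaving out each library. Software was R 4.3.3, edgeR 4.0.16, limma 3.58.1 and DESeq2 1.42.0.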

Additional observations from a re-analysis of the deposited data

How the results depend on the processing

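The number of members that rose was 10 in the main test and 9 to 12 under the other scalings, filters, tools and the replicate block, and 0 fell in any. It was 7 to 11 on leaving out 1 library, 11 at a threshold of 0.1, 6 at 0.01 and 5 with dKO replicate 2 alone. Ltbp2, Bmp8a, Bmp8b, Inhbb, Nbl1 and Gdf11 passed in all 13 other fits by tool, scaling, filter, block or left-out library. Over all genes, 995 rose and 177 fell. Leaving out 1 library gave 676 to 1101 and 48 to 323, no filter gave 279 falls, a threshold of 0.1 gave 395 falls, one of 0.01 gave 614 rises and 47 falls, and dKO replicate 2 alone gave 424 and 16. Of the non-member pathway genes 18 passed, 11 to 20 on leaving out 1 library, 11 at a threshold of 0.01 and 6 with dKO replicate 2 alone. Kdm1a and Kdm5c kept their direction and their side of the threshold throughout.

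Same-numbered libraries did not deviate together (correlations of 0.00931, -0.0342 and -0.0262), and the main test did not pair them. The labels do not say whether equal numbers mark a pairing, and so few libraries cannot settle it. With a replicate block 10 members rose and 0 fell, and over all genes 960 rose and 149 fell. Without division by exon length, Ltbp1, Ltbp3 and Ltbp4 supplied 8.32, 30.6 and 45.3% of the LTBP sum in dKO instead of 5.95, 25.8 and 53.5%.

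Members near 0 changed sign on leaving out 1 library, and none of them passed either way. Their log2 fold changes ranged from -0.08 to 0.47 for Bmp3, -0.04 to 0.09 for Inha, -0.03 to 0.09 for Tgfbr3, -0.08 to 0.01 for Bmpr2, -0.01 to 0.04 for Acvr1b, -0.07 to 0.16 for Acvr1c, -0.08 to 0.02 for Smad2, -0.07 to 0.02 for Smad7, -0.07 to 0.13 for Smad9, -0.12 to 0.04 for Grem1 and -0.25 to 0.14 for Bambi. Grem1 was 0.0005 under library size scaling. With dKO replicate 2 alone Bmp3, Bmp5 and Bmp7 were at -0.39, -0.53 and -0.35. The cause of these sign changes was not tested.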
